A study of Mus musculus with 6 samples.

Results

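The RAS-MAPK pathway carries signals from growth factor receptors at the membrane to transcription in the nucleus. Adaptors and exchange factors load RAS GTPases with GTP, active RAS recruits RAF kinases, RAF phosphorylates the MEK kinases, and MEK phosphorylates the ERK kinases, which act on further kinases and on transcription factors. GTPase-activating proteins switch RAS off, and dual-specificity phosphatases, the DUSP family, remove phosphate from MAP kinases, several of them as feedback genes that the pathway itself induces. In melanocytes and melanoma the pathway controls growth, and melanomas often carry activating mutations in it.

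Here 36 genes of this pathway were described in 2 mouse melanoma lines, B16-F1 and D5.1G4. They comprise 21 components (RAS GTPases, RAF kinases and a scaffold, MEK and ERK kinases, adaptors, exchange factors, GTPase-activating proteins and ERK-activated kinases), 11 DUSP genes and 4 genes induced by the pathway, called output genes here. The genes were chosen by name, and a probe was taken as theirs when its accession matched the gene. All 36 had at least 1 probe, 52 probes in all, among 20659 genes with a probe on the array. B16-F1 is a line of the transplantable B16 mouse melanoma, and D5.1G4 is described in the labels only as a melanoma line. Both were untreated, seeded at 1000000 cells in 6-well plates and grown in serum-containing (10% fetal bovine serum) RPMI-1640 over 24 h, reaching 75% to 95% confluence. The title of the series speaks of melanomas that differ in tumorigenicity, D5.1G4 is the line the design sets B16-F1 against, and the labels do not say which is the more tumorigenic. Total RNA of 3 samples of each line was hybridised to one-colour Agilent mouse 4x44K v2 arrays. The labels do not say whether the samples of a line came from separate cultures, so p-values cover the spread among these 6 samples alone, and that spread may be technical. The arrays measure transcripts only. Neither phosphorylated ERK nor mutations were measured, and in RNA of a whole culture fewer expressing cells and less RNA per cell cannot be told apart.

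Levels are given as the log2 of the background-subtracted signal minus the log2 of the 75th percentile of the same array, so that 0 is the 75th percentile. Each gene is given by the probe with the highest mean over the 6 arrays, and levels of different probes are not compared. With 3 arrays a line, the number of arrays limits the precision. Differences are B16-F1 minus D5.1G4, in log2 units. A gene was called higher or lower when its Benjamini-Hochberg adjusted p from limma, over all features tested, was 0.05 or less and its difference was at least 2-fold. The arrays fell into 3 groups by the scan identifier in the file headers, and each group was taken as a slide. Slide 1 held B16-F1 replicates 2 and 3, slide 2 held B16-F1 replicate 1 with D5.1G4 replicates 2 and 3, and slide 3 held D5.1G4 replicate 1. Spots well above background made up 62.0% and 61.7% on the arrays of slide 1, against 53.4% to 54.4% on the other 4. All 7 melanocyte lineage markers examined, among them Mitf, Sox10 and Tyr, were well above background on every array and none was called. Of 13 markers of leukocytes, endothelium, epithelium and fibroblasts, 5 were not well above background on any array, 4 were so on all 6 (Cd3e, Pecam1, Krt5 and Krt14) and none was called. The difference was -0.41 for Actb (adjusted p = 0.0409). For Gapdh it was -0.57 (adjusted p = 0.0901), and neither housekeeping gene was called.

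Most of the pathway was expressed in both lines. Of the 36 genes, 34 were tested, since they stood well above background on 3 or more arrays, and 4 were called higher in B16-F1 and 3 lower. That is 20.6% of the 34, where 15.2% of all 18442 features tested were called (6.28% higher and 8.89% lower). The genes called higher were the MEK gene Map2k1, the phosphatase genes Dusp6 and Dusp7 and the output gene Ier3. The genes called lower were the RAS family gene Mras and the phosphatase genes Dusp8 and Dusp10. The 2 genes not tested, Dusp5 and Dusp9, were not well above background on any array.

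Among components, 2 of 21 (9.52%, against 15.2% of all features) were called, 1 in each direction, with a median difference of 0.06. Ksr1 (1.14) and Sos1 (1.28) also differed by more than 2-fold but did not pass the adjusted p. Among DUSP genes 4 of the 9 tested were called, 2 in each direction, with a median of -0.31 and a range of -2.70 to 1.85. Among output genes 1 of 4 was called, with a median of 0.32. The median over all features was 0.00 (-0.0042). The median size of a difference, without its sign, was 0.47 for components, 0.80 for DUSP genes and 0.79 for output genes, against 0.43 over all features. Differences between these groups of genes were not tested.

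With adjusted p alone and no minimum fold, 19 of the 34 genes (55.9%) passed, 11 higher and 8 lower, against 34.9% of all features. All B16-F1 arrays lay on the same side of all D5.1G4 arrays in 23 of the 34 (67.6%), against 50.7% of all features measured on 6 arrays.

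**Figure D1:**
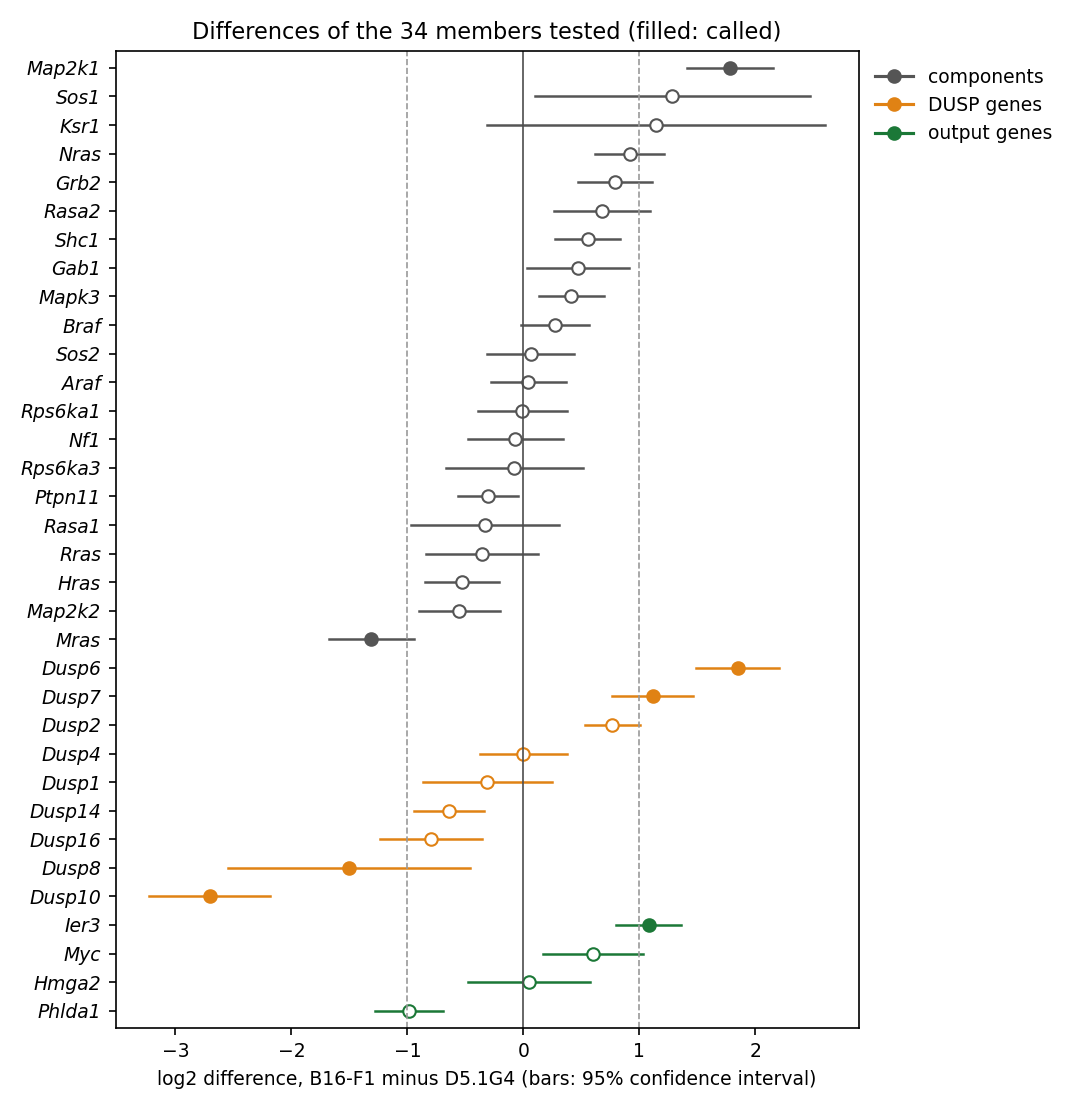
Log2 difference between B16-F1 and D5.1G4 for each of the 34 genes tested (points) with its 95% confidence interval (bars), for components, DUSP genes and output genes from top to bottom. Filled points are the 7 called genes, dashed lines mark a 2-fold difference, and most components lie between these lines while Dusp10 at -2.70 and Dusp6 at 1.85 lie farthest out.

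The promoters of 4 called genes are shown because these genes carry the 4 largest differences among the 36 genes: the ERK phosphatase gene Dusp6 and the MEK gene Map2k1, called higher, and the stress kinase phosphatase genes Dusp8 and Dusp10, called lower. Each is the stretch from 250 bases before to 50 bases after the RefSeq transcription start on GRCm38.p6, read 5′ to 3′ on the strand of the gene. Capitals mark matches on either strand to an ETS motif (CCGGAA), an AP-1 motif (TGANTCA), a cAMP response element (TGACGTCA) or an E-box (CACGTG), none of which overlapped another.
Dusp6, chr10:99262981-99263280, plus strand: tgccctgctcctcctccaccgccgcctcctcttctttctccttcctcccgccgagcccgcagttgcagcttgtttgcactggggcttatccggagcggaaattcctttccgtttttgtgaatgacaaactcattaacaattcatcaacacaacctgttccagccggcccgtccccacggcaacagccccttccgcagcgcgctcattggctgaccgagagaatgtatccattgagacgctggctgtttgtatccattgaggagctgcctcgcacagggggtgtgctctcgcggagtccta
Map2k1, chr9:64253556-64253855, minus strand: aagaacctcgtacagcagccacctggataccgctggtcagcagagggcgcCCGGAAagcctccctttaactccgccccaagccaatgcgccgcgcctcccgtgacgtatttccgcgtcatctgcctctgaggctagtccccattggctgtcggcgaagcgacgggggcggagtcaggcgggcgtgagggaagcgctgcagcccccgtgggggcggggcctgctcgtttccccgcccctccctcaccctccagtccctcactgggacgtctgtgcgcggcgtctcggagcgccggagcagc
Dusp8, chr7:142095235-142095534, minus strand: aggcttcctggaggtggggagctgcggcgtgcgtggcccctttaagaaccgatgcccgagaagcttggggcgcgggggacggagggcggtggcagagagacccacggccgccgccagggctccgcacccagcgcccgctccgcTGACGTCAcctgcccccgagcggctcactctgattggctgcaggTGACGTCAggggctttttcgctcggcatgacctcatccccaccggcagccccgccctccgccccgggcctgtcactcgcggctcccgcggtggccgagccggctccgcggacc
Dusp10, chr1:184034131-184034430, plus strand: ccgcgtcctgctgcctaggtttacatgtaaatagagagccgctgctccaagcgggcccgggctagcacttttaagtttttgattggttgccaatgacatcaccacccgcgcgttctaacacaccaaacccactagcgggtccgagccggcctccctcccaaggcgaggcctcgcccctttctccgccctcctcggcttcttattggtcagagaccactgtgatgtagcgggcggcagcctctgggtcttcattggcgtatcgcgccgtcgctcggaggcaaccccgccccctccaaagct

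The Dusp8 window held 2 cAMP response elements, at positions -107 and -63 from the start, and the Map2k1 window held 1 ETS motif at position -200. The Dusp6 and Dusp10 windows held none of the 4 motifs, which says only that these letters are not in these windows, and neither did those of the other called genes Dusp7, Ier3 and Mras. RefSeq windows were found for 30 of the 36 genes, 38 windows in all. An ETS motif was in 9 of the 38 (23.7%), against 14.9% of all 32851 windows of the same length. An AP-1 motif was in 2 (5.26%, against 7.81%), a cAMP response element in 4 (10.5%, against 1.79%) and an E-box in 3 (7.89%, against 7.15%). Besides Dusp8, the element was in the windows of Braf, Dusp1 and Ptpn11, none of which was called. These matches are descriptions and were not tested.

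RAS GTPases are the switches at the head of the cascade, and the 4 described here differed in direction. Mras, a RAS relative known to act with SHOC2 on RAF, was the 1 called. Its level was -0.9995, -1.27 and -1.37 in B16-F1, against -0.03, 0.04 and 0.28 in D5.1G4. Every B16-F1 array lay below every D5.1G4 array, and Mras fell 2.48-fold in B16-F1 (difference -1.31, SE 0.15, adjusted p = 0.00147). This call rested on 1 probe. The other Mras probes gave 0.50 (SE 0.23) and -0.35 (SE 0.40), neither of them called. Both of these probes were dim, reading -4.29 to -3.27 and -6.23 to -4.61. The dimmer one was well above background on only 2 B16-F1 arrays and 1 D5.1G4 array. With the mean over the 3 probes the difference was -0.39 (adjusted p = 0.166).

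Nras, a RAS gene often mutated in human melanoma, lay just under the minimum fold. Its level was 1.73, 1.70 and 1.61 in B16-F1, against 0.81, 0.59 and 0.88 in D5.1G4, with no overlap between the lines. The difference was 0.92, SE 0.12 (1.89-fold, adjusted p = 0.00246). Its 3 probes were not alike: a further probe was called at 1.41 (SE 0.18, adjusted p = 0.00193), while the last gave 0.05 (SE 0.11, adjusted p = 0.763). Hras had lower values in B16-F1. Its level was 0.91, 0.89 and 1.00 in B16-F1, against 1.25, 1.56 and 1.58 in D5.1G4, a difference of -0.53, SE 0.13 (adjusted p = 0.0247) without overlap but under 2-fold. Rras, a relative of the classical RAS genes with roles in adhesion, differed by -0.36 (95% interval -0.84 to 0.13) and its arrays overlapped.

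RAF kinases and their scaffold gave no call at gene level. Braf, the kinase that is the main mutated RAF in melanoma, had 1.32, 1.19 and 1.13 in B16-F1, against 0.85, 1.07 and 0.90 in D5.1G4. The lines did not overlap, yet the difference was 0.27 (95% interval -0.02 to 0.56, adjusted p = 0.131). A further, dim probe, reading -5.24 to -4.56, gave -0.24 (SE 0.18). Araf, a RAF kinase with weaker activity, differed by 0.04 (95% interval -0.28 to 0.37) on the probe that stands for the gene.

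The other 2 probes of Araf, both designed to a different RefSeq transcript of the gene, gave another picture. The first read 0.41, 0.36 and 0.36 in B16-F1, against 1.79, 1.77 and 1.71 in D5.1G4. The second read -0.98, -0.86 and -0.85 in B16-F1, against 0.67, 0.21 and 0.06 in D5.1G4. The lines stayed apart on both, and both were called lower, by -1.38 (SE 0.10, adjusted p = 0.000294) and -1.21 (SE 0.18, adjusted p = 0.00363). The mean over the 3 Araf probes was -0.85 (adjusted p = 0.00234), with the sign opposite to that of the probe that stands for the gene.

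Ksr1, a scaffold that holds RAF, MEK and ERK together, showed values that moved with the slide. Its level was -4.49, -2.29 and -2.71 in B16-F1, against -3.79, -4.32 and -4.80 in D5.1G4. The 2 high values, -2.29 and -2.71, were both from slide 1, and B16-F1 replicate 1 from slide 2 lay among the D5.1G4 arrays. The difference was 1.14, SE 0.60 (adjusted p = 0.194). It was 0.07 with slide as a block, -0.19 without the arrays of slide 1 and 1.80 without B16-F1 replicate 1 (adjusted p = 0.0114). It was 0.69 with normexp background correction (adjusted p = 0.495) and passed the test with median centring (1.02, adjusted p = 0.0204), where limma gave nearly every feature the same SE (median 0.33).

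The MEK and ERK genes included the largest difference of any component. Map2k1, which encodes MEK1, one of the kinases that phosphorylate ERK, had 2.82, 2.86 and 3.22 in B16-F1, against 1.06, 1.31 and 1.18 in D5.1G4. Every B16-F1 array was above every D5.1G4 array, and Map2k1 rose 3.44-fold (1.78, SE 0.15, adjusted p = 0.000511). It remained called under all 22 alternatives run, with differences of 1.57 to 1.86. Among these are looser call rules, which keep a call by construction. Map2k2, the gene of the close relative MEK2, had the opposite sign. Its level was 2.55, 2.56 and 2.32 in B16-F1, against 2.83, 3.20 and 3.05 in D5.1G4, without overlap, and the difference was -0.55, SE 0.14 (adjusted p = 0.0290), under the minimum fold. A further Map2k2 probe gave -0.52 (SE 0.19). Mapk3, which encodes ERK1, had 0.76, 0.63 and 0.89 in B16-F1, against 0.30, 0.33 and 0.41 in D5.1G4. The difference was 0.41, SE 0.12 (adjusted p = 0.0365), without overlap and under 2-fold, and a further probe gave 0.69 (SE 0.18). Map2k1 had 1 probe on the array, so no second probe of it could be compared.

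Adaptors and exchange factors tie receptors to RAS, and 5 of the 6 had positive differences without a call. Grb2, the adaptor that brings SOS to activated receptors, had 2.51, 2.19 and 2.28 in B16-F1, against 1.64, 1.54 and 1.43 in D5.1G4. The lines did not overlap, with a difference of 0.79, SE 0.13 (1.73-fold, adjusted p = 0.00565). A further Grb2 probe was called at 1.34 (SE 0.24, adjusted p = 0.00715), and with slide as a block the probe that stands for the gene passed the minimum fold at 1.02 (adjusted p = 0.0209). Shc1, an adaptor phosphorylated by receptors, had 4.15, 4.23 and 4.20 in B16-F1, against 3.79, 3.59 and 3.54 in D5.1G4. Its difference was 0.55, SE 0.12 (adjusted p = 0.0130), small and without overlap.

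Gab1, a docking protein, differed by 0.47 (adjusted p = 0.0938). Ptpn11, which encodes the phosphatase SHP2 that promotes RAS activation, differed by -0.30 (adjusted p = 0.0724). Sos1 and Sos2 encode the exchange factors that load RAS with GTP. Sos1 had -4.04, -4.16 and -3.98 in B16-F1, against -4.51, -6.49 and -5.03 in D5.1G4. The lines did not overlap, but D5.1G4 replicate 2, where the probe was not well above background, stood far below the other 5 arrays. The Sos1 difference was 1.28, SE 0.49 (adjusted p = 0.0898), with 0.71 without D5.1G4 replicate 2 (adjusted p = 0.0534) and 1.70 without D5.1G4 replicate 1 (adjusted p = 0.0388). It was 0.58 with normexp (adjusted p = 0.489), and it passed the test with median centring (1.16, adjusted p = 0.00836), with the shared SE given for Ksr1. Sos2 differed by 0.06 (95% interval -0.31 to 0.43).

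Of the GTPase-activating proteins that end RAS signalling, none was called. Nf1, the neurofibromatosis gene, was at 2.64 to 3.15 in B16-F1 and 2.97 to 3.13 in D5.1G4. Its difference was -0.07 (95% interval -0.48 to 0.34), so a change of 2-fold lay outside the interval. Rasa1 had 0.46, 0.56 and 0.54 in B16-F1, against 1.45, 0.49 and 0.62 in D5.1G4. A single array, D5.1G4 replicate 1, was high, and the difference was -0.33 (95% interval -0.97 to 0.30). Rasa2 had -0.63, -0.66 and -0.42 in B16-F1, against -0.96, -1.50 and -1.29 in D5.1G4, without overlap, and differed by 0.68, SE 0.17 (adjusted p = 0.0251). The ERK-activated kinase genes Rps6ka1 and Rps6ka3, which encode ribosomal S6 kinases, differed by -0.01 (95% interval -0.39 to 0.37) and -0.08 (95% interval -0.67 to 0.52), and the arrays of the lines overlapped for both.

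**Figure D2:**
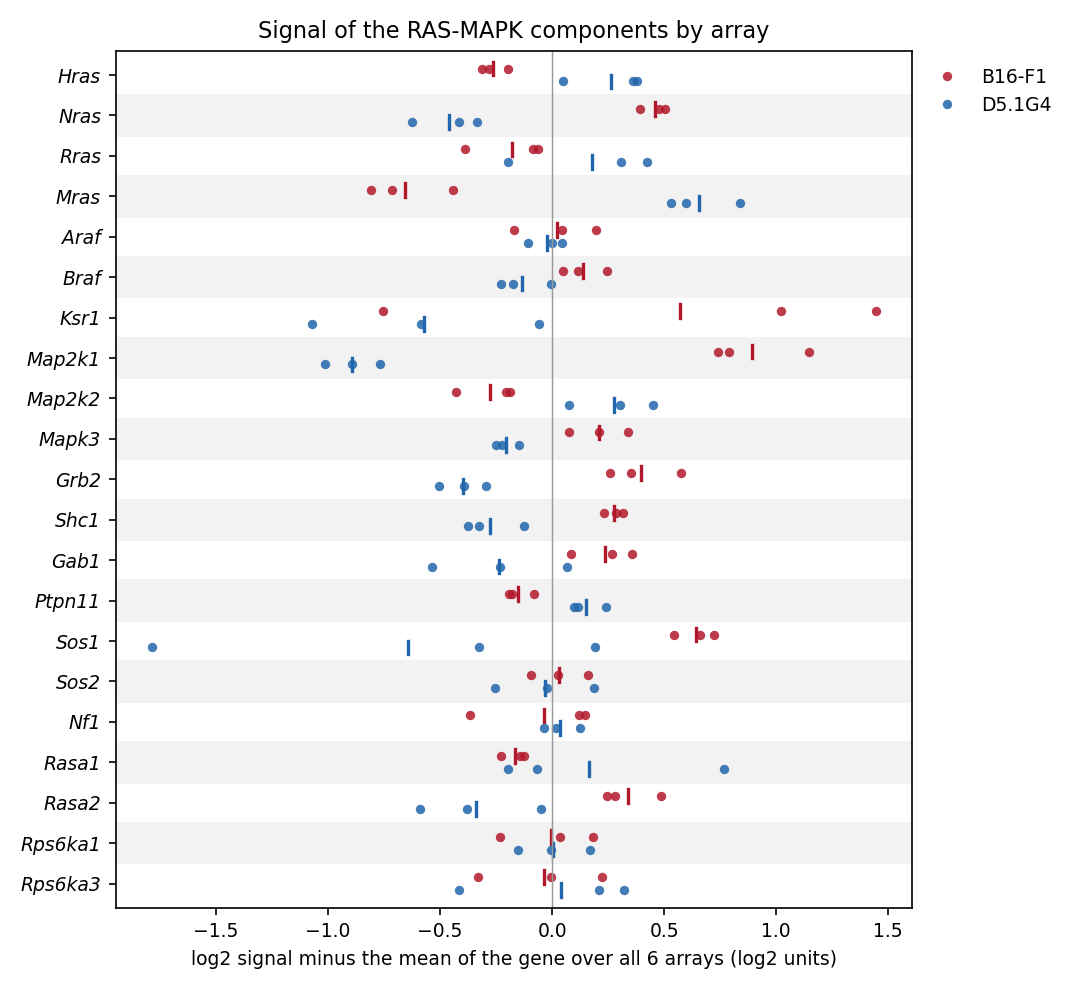
Log2 signal of the 21 components on each array, set against the mean of the gene over all 6 arrays, with B16-F1 points above D5.1G4 points in each row and short vertical lines at the mean of 3 arrays. Map2k1 is high on all 3 B16-F1 arrays and Mras low on all 3, while Ksr1 and Sos1 show 1 array of a line far from the others.

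DUSP genes held 4 of the 7 calls, which is 4 of the 9 tested (44.4%), where 15.2% of all features were called. Among the called ones the direction differed between phosphatases with different known substrates. This grouping by substrate was made with the values known and was not tested. Dusp6 and Dusp7 encode cytoplasmic phosphatases selective for ERK, and both were called higher. Dusp6, a feedback gene induced by ERK activity, had 3.50, 3.20 and 3.14 in B16-F1, against 1.58, 1.42 and 1.30 in D5.1G4. Every B16-F1 value was more than 1 log2 unit above every D5.1G4 value, and Dusp6 rose 3.60-fold (1.85, SE 0.15, adjusted p = 0.000393).

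Dusp7 had 0.79, 0.67 and 1.08 in B16-F1, against -0.36, -0.26 and -0.18 in D5.1G4. The lines did not overlap, and Dusp7 rose 2.17-fold (1.12, SE 0.14, adjusted p = 0.00223). Its call sat near the minimum fold and was lost without B16-F1 replicate 3, where the difference was 0.9971 (adjusted p = 0.00706), with normexp (0.95) and with median centring (0.99). Dusp9, the third ERK-selective cytoplasmic phosphatase gene, was detected on none of the 6 arrays.

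Dusp8, Dusp10 and Dusp16 encode phosphatases that act mainly on the stress-activated kinases JNK and p38, and all had negative differences. Dusp10 had -4.04, -4.20 and -3.66 in B16-F1, against -0.92, -1.37 and -1.50 in D5.1G4. The arrays of the lines were far apart, and Dusp10 fell 6.52-fold in B16-F1 (-2.70, SE 0.21, adjusted p = 0.000389), the largest difference of the 34 genes on this scale. With normexp background correction the difference was -1.62 (adjusted p = 0.0508). Dusp8, whose promoter carries the 2 cAMP response elements shown above, had -2.75, -2.26 and -2.06 in B16-F1, against 0.10, -1.30 and -1.36 in D5.1G4. D5.1G4 replicate 1, alone on slide 3, was far above the other arrays of its line, but even the lower D5.1G4 arrays lay above all B16-F1 arrays.

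Dusp8 fell 2.83-fold (-1.50, SE 0.43, adjusted p = 0.0386). Leaving out B16-F1 replicate 1 (adjusted p = 0.0808), replicate 2 (0.0854) or replicate 3 (0.0717), or D5.1G4 replicate 2 (0.0551), ended the call, as did normexp (0.155), and the difference was -1.03 without D5.1G4 replicate 1 (adjusted p = 0.0264). A second Dusp8 probe was tighter. It read -2.58, -2.55 and -2.67 in B16-F1, against -1.15, -1.41 and -1.23 in D5.1G4, and was called lower at -1.34 (SE 0.12, adjusted p = 0.000588). Dusp16 had 1.37, 1.31 and 1.12 in B16-F1, against 1.90, 2.41 and 1.88 in D5.1G4. Its difference was -0.80, SE 0.18 (1.74-fold lower, adjusted p = 0.0172), without overlap and under the minimum fold.

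Nuclear, inducible DUSP genes were mixed. Dusp2 encodes such a phosphatase and had 0.41, 0.41 and 0.46 in B16-F1, against -0.30, -0.38 and -0.35 in D5.1G4, a tight separation with a difference of 0.77, SE 0.10 (1.70-fold, adjusted p = 0.00220). Dusp1, induced by growth factors and stress, had -0.78, -0.85 and -0.71 in B16-F1, against 0.04, -0.77 and -0.68 in D5.1G4. It was high on D5.1G4 replicate 1 alone, and the difference was -0.31 (95% interval -0.87 to 0.25). Dusp4, an ERK feedback gene like Dusp6, had 0.36, 0.60 and 0.64 in B16-F1, against 0.74, 0.32 and 0.54 in D5.1G4. The values of the lines were interleaved, and the difference was -0.0018 (95% interval -0.38 to 0.37), so that the interval holds no 2-fold change. Dusp5, another feedback gene, read -7.80 to -7.48 in B16-F1 and -7.23 to -7.11 in D5.1G4, and was not well above background there. Dusp14, an atypical small phosphatase, had -2.87, -2.93 and -2.76 in B16-F1, against -2.15, -2.37 and -2.10 in D5.1G4. Its difference was -0.64, SE 0.12 (adjusted p = 0.00971), without overlap and under 2-fold.

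**Figure D3:**
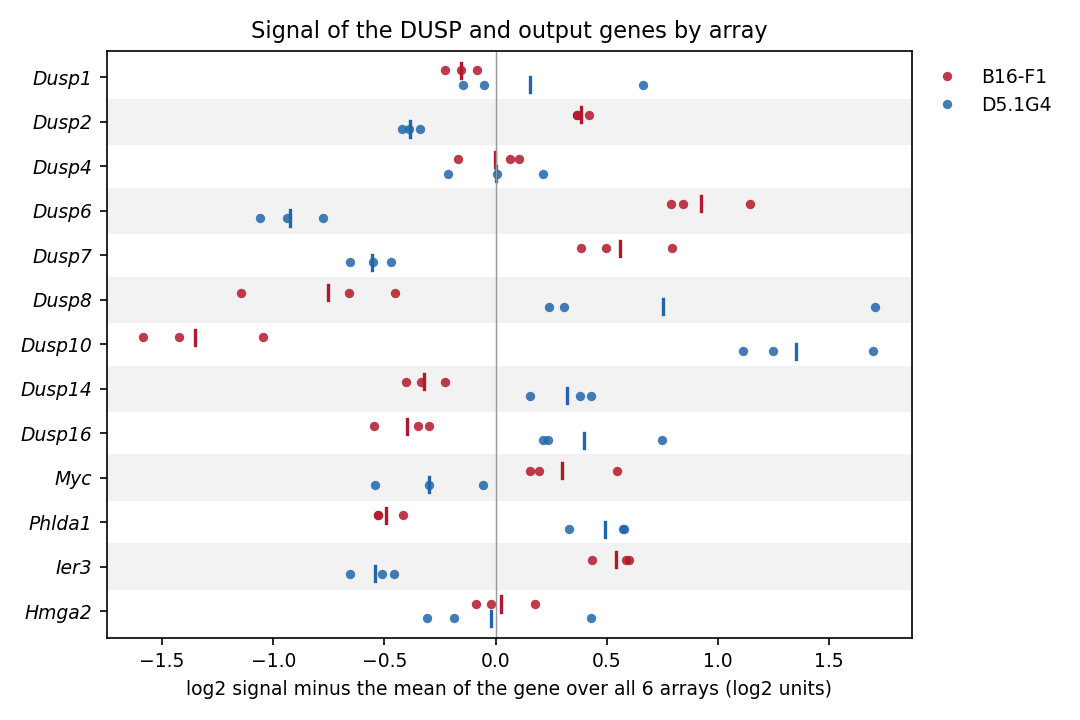
Log2 signal of the 9 DUSP genes and 4 output genes tested on each array, set against the mean of the gene over all 6 arrays, with B16-F1 points above D5.1G4 points in each row and short vertical lines at the mean of 3 arrays. The lines are farthest apart for Dusp10, low in B16-F1, and Dusp6, high in B16-F1, while Dusp4 and Hmga2 overlap.

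Output genes did not move together. Ier3, an early response gene linked to survival, had 0.31, 0.29 and 0.14 in B16-F1, against -0.95, -0.75 and -0.80 in D5.1G4. The lines were clearly separated, and Ier3 rose 2.12-fold (1.08, SE 0.12, adjusted p = 0.00114). The call was lost with normexp (0.92) and with median centring (0.96). Myc, the growth-promoting transcription factor, had 2.54, 2.58 and 2.93 in B16-F1, against 2.33, 2.08 and 1.84 in D5.1G4. Its difference was 0.60, SE 0.18 (1.51-fold, adjusted p = 0.0435), without overlap and under the minimum fold.

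Phlda1, a pleckstrin homology-like protein gene induced by ERK, had the opposite sign. Its level was 4.81, 4.93 and 4.81 in B16-F1, against 5.92, 5.92 and 5.67 in D5.1G4. All B16-F1 arrays lay below all D5.1G4 arrays, and the difference of -0.99, SE 0.12 (1.98-fold lower, adjusted p = 0.00180) missed the minimum fold narrowly. It was past that fold when B16-F1 replicate 2 (-1.02) or D5.1G4 replicate 3 (-1.07) was left out, and without the arrays of slide 1 (-1.02). The same held with normexp (-1.09, adjusted p = 0.0194) and with median centring (-1.11, adjusted p = 0.00683). With quantile normalization (-0.78) and with the authors' values (-0.76) Phlda1 lay further under the minimum fold. Hmga2, a chromatin architectural factor of embryonic cells, had 0.72, 0.51 and 0.45 in B16-F1, against 0.96, 0.35 and 0.23 in D5.1G4. The lines overlapped, and the difference was 0.05 (95% interval -0.48 to 0.57).

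Other genes of the pathway came from a list of 35, of which 28 were tested. Of these, 7 were called higher in B16-F1 and 2 lower (32.1% of those tested, against 15.2% of all features), with a median of 0.59. The list was drawn up with earlier results of these samples known, so its count is not independent evidence. The 6 called genes with the largest differences were the ETS factor genes Etv5 and Etv4, the feedback inhibitor genes Spry4 and Spry1, the AP-1 gene Fos and, lower in B16-F1, the ephrin receptor gene Epha4. Etv5 differed by 4.32 (SE 0.20), Spry1 by 1.92 (SE 0.28), Etv4 by 1.72 (SE 0.24), Fos by 1.63 (SE 0.16) and Epha4 by -1.39 (SE 0.14), with adjusted p of 5.69e-05 to 0.00354. Spry4 was detected on no D5.1G4 array and was at least 1.24-fold higher, a bound set by the weakest detected probe of the 2 D5.1G4 arrays that measured it. That bound is under the minimum fold. Spry4 passed the detection filter only through its 3 B16-F1 arrays, so its call, counted among the 7 higher, adds no support.

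Probes of the same gene were compared where more than 1 was tested, which held for 10 of the 36 genes. In 7 of the 10 all probes had the same sign, and in 3 (Mras, Araf and Braf) they did not. Taken singly, 47 probes of the 36 genes were tested, and 6 were called higher and 6 lower, where 15.7% of all 22131 probes were called (7.02% higher and 8.7% lower). The called probes covered 10 genes, adding Nras, Araf and Grb2 to the 7 called by the probe that stands for the gene.

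**Figure D4:**
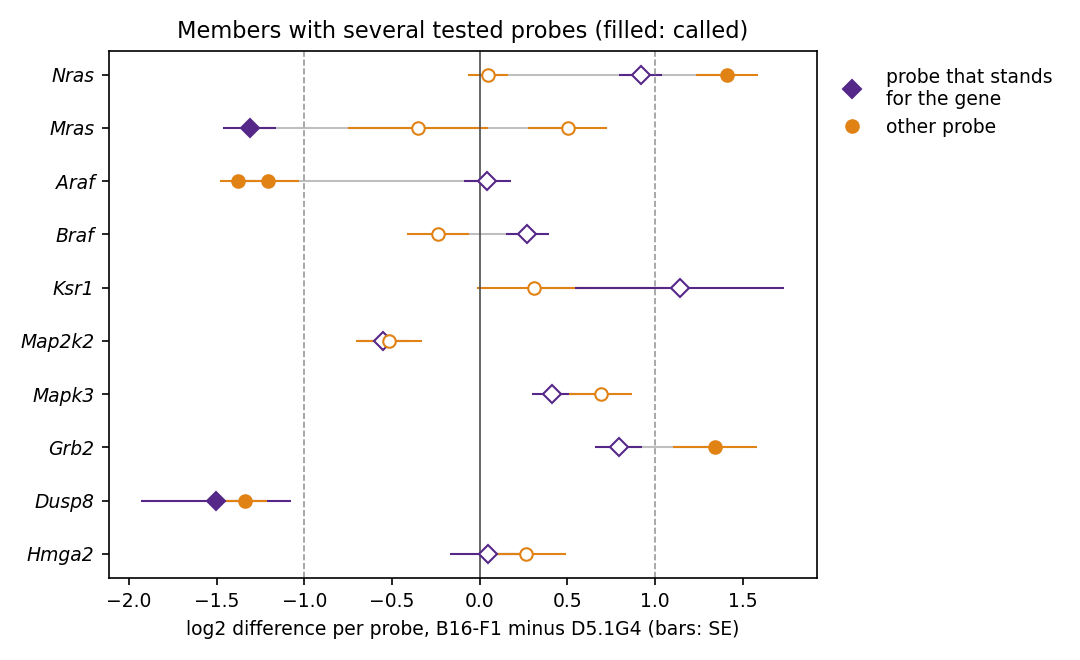
Log2 difference between B16-F1 and D5.1G4 for each tested probe of the 10 genes with several (bars, SE), with diamonds for the probe that stands for the gene, circles for other probes, filled where called and dashed lines at a 2-fold difference. The probes of Dusp8 and Map2k2 lie close together, whereas those of Nras, Mras and Araf spread over more than 1 log2 unit.

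Slide and line were partly confounded, and slide 2 alone held both lines. With slide as a block, which rests on the 1 B16-F1 and 2 D5.1G4 arrays of slide 2 for the difference, all 7 called genes remained called: Map2k1 at 1.57, Dusp6 at 2.14, Dusp7 at 1.01, Ier3 at 1.09, Mras at -1.16, Dusp8 at -1.42 and Dusp10 at -2.61. Grb2 was added, giving 5 higher and 3 lower, where 14.2% of all features were called (5.36% higher and 8.79% lower). The arrays of slide 2 alone give the same differences by construction, so they add no support, and their spread comes from the D5.1G4 arrays, with the lone B16-F1 array assumed to vary likewise. Without the arrays of slide 1, which also leaves 1 B16-F1 array, 4 genes were called higher and 3 lower, where 11.8% of all features were called. Phlda1 was among them and Dusp8 was not, although its difference was larger (-1.90, adjusted p = 0.134).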

How the data were processed

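Total RNA of 3 B16-F1 and 3 D5.1G4 samples was labelled with Cy3 and hybridised to one-colour arrays, 1 array a sample. Per the file headers, the authors' scanner files come from Agilent Feature Extraction 11.0.1.1 and hold a background-subtracted, detrended signal intensity for each spot with flags (other values, 0 or 1), with no normalization between arrays. The authors also deposited processed log2 values for 22147 probes. Their normalization is not given in the sources used, and they served as an alternative.

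From the deposited intensity, log2 signals minus the 75th percentile of the array were computed, spots flagged as non-uniform or population outliers were left out (0.67% to 1.58% an array), and spots of a probe were averaged. Probes were named through RefSeq accessions (69.1% of 39429 matched 1 gene). A gene took its probe with the highest mean over the 6 arrays, and a feature was tested if well above background on at least 3 arrays. limma 3.58.1 in R 4.3.3 (lmFit and eBayes) was fitted over all 18442 features with Benjamini-Hochberg adjustment. The fit was tested on simulated data. It recovered 66% of 100 features changed by 1.5 log2 units and 97% of 100 changed by 3, with 8 false calls. Slides were inferred from the file headers. Arrays that shared a scan identifier were taken as lying on the same slide, and slides were numbered by scan date.

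All 36 genes are named whatever their values. Of the 35 other pathway genes, up to 6 called ones with the largest differences are named. That list also held Dusp3, Dusp18, Dusp19 and Dusp22, which were tested and not called (differences -0.31, 0.68, 0.68 and 0.90). The genes and lists were chosen with earlier results of these data known. Motifs were searched in RefSeq windows on GRCm38.p6. The alternatives were background correction, normalization, the authors' values, filters, the rule for probes, the call rule, slide or replicate number as a block, slide 2 alone, limma's trend and leaving out each array. Leaving out slide 1 was added after seeing the data. The normexp alternative (offset 50) used median spot and background signals. The deviations from the line means of same-numbered arrays correlated at -0.39, -0.03 and -0.30, so the numbers were not taken as pairs.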

Additional observations from a re-analysis of the deposited data

How the results depend on the processing

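Among the 7 called genes, 140 of 154 values under 22 alternatives kept their direction and call, 14 kept the direction and lost the call, and none reversed. The alternatives with unadjusted p and with no minimum fold only loosen the call rule, so they keep all 7 calls by construction. Slide 2 alone repeats the differences of the slide block. Among the 27 not called, 25 of 593 values became calls and 32 changed sign. With no minimum fold 19 genes pass in place of 7, so part of the 25 follows from the looser rule and not from the processing. The number of arrays limits precision, and signal over background limits Sos1, Dusp5 and Dusp9. Levels of Dusp10 in B16-F1 and of Ksr1 were also low. Normexp moved Dusp10 from -2.70 to -1.62, which lost its call, and Ksr1 from 1.14 to 0.69. With normexp background correction 2 of the 36 genes were called higher and 2 lower (Phlda1 among them), and 1251 features in all (6.78%, against 15.2% in the main fit). With every probe as a feature of its own 6 probes of these genes were lower, where 8.7% of all probes were called lower. With adjusted p and no minimum fold 11 genes were higher and 8 lower, and 6434 features (34.9%) passed. With the replicate number as a block 4 genes were higher, 2 lower and 2580 features (14%) called, with Dusp8 lost (adjusted p = 0.109). Leaving out 1 array gave 3 to 5 genes higher, 2 to 4 lower and 2530 to 3375 features called (13.7% to 18.3%). Median centring gave a median of all features of -0.13 and 92.7 degrees of freedom (median), against 6.17 with the 75th percentile, so its p-values rest on a spread shared by nearly all features. The slide block gave a median of -0.15.

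Sign changes were all in genes whose differences were not called. Normexp gave Sos2 -0.0646 and Dusp4 0.0187. Quantile normalization gave Nf1 0.0384 and Rps6ka1 2e-04. Median centring gave Araf -0.0808, Sos2 -0.0632 and Hmga2 -0.0794. The authors' values gave Nf1 0.0367, Rps6ka1 0.012 and Dusp4 0.0042. The mean over probes gave Araf -0.85 (adjusted p = 0.00234), under the minimum fold. The slide block and slide 2 alone gave Rps6ka1 0.10. Without slide 1 the values were Ksr1 -0.19, Sos2 -0.0639, Rps6ka1 0.18 and Rps6ka3 0.18. Leaving out 1 array gave Araf -0.0429 to 0.14, Sos2 -0.0519 to 0.17, Nf1 -0.16 to 0.10, Rps6ka1 -0.10 to 0.11, Rps6ka3 -0.30 to 0.0698, Dusp4 -0.11 to 0.10 and Hmga2 -0.10 to 0.27. Beyond what the alternatives' own construction shows, the cause was not tested.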
